A study of Mus musculus with 8 samples.

Results

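The genes for the cytosolic ribosomal proteins, the protein part of the ribosomes that translate nuclear messages, were followed in mouse livers with and without acute injury. They were taken from a table of 55416 genes as the protein-coding rows whose symbol begins with Rpl or Rps (or Rplp, the stalk proteins) and a digit, together with Rpsa, leaving out 9 Rps6k kinase genes and the named pseudogenes. This gave 87 genes: 43 of the large subunit, 31 of the small subunit, 3 of the stalk, 8 paralogs or retroposed copies (Rpl3l, Rpl39l, Rpl10l, Rpl22l1, Rpl36al, Rps27l, Rps27rt and Rps23rg1), the assembly factor Rpl7l1 and Rps19bp1, which codes for a protein that binds Rps19. RNA from whole livers was sequenced in 4 groups of 2 libraries. The control mice were Glul flox/flox (called floxed here). The other mice were GlulΔlyz2 (called KO), in which Glul, the gene for glutamine synthetase, is lost in cells with Cre activity from the Lyz2 locus, that is mainly in monocytes, macrophages and neutrophils and not in hepatocytes. Mice of each genotype were injected into the peritoneum with H2O or, to injure the liver, with lipopolysaccharide (LPS, 1 mg/kg) and D-galactosamine (D-GalN, 200 mg/kg). LPS stimulates macrophages, while D-GalN depletes uridine nucleotides in hepatocytes, which limits their RNA synthesis and sensitises them to killing by cytokines. The sources used here do not give the time from injection to collection, the age or the sex of the mice. The labels do not say that the 2 libraries of a group were separate animals, so p-values measure only the spread between these libraries.

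Ribosomal proteins are needed in equal numbers for each new ribosome, and their genes are among the most strongly and most evenly expressed of any cell. Their messages start with a run of pyrimidines, the 5′ terminal oligopyrimidine (TOP) tract, through which the kinase complex mTORC1 and the binding protein Larp1 set their translation. Surplus ribosomal proteins are degraded, and when ribosome assembly is disturbed Rpl5 and Rpl11 bind Mdm2 and thereby stabilise p53.

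The TOP tract begins at the start of the message, and the start sites of 7 of the genes are shown for that reason, as 50 bases from 20 before to 30 after the RefSeq start, read 5′ to 3′ on the strand of the gene. Capitals mark CTTTCC, a pyrimidine run, or CGGAAG, the core of the site of ETS factors, each searched on both strands, where they appear as GGAAAG and CTTCCG.
Rpl37a: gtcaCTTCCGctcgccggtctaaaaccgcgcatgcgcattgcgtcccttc
Rpl41: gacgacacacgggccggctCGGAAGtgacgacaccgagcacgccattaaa
Rpl35: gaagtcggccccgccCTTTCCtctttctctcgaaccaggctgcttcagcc
Rpl28: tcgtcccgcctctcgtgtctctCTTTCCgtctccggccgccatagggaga
Rpl7l1: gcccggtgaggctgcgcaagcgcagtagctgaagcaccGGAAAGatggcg
Rps27l: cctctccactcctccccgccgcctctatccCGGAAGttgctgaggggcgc
Rps19bp1: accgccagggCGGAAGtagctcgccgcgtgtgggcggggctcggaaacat
The sequences are those of RefSeq on GRCm38.p6, at chr1:72711240-72711289, plus strand for Rpl37a, chr10:128549139-128549188, minus strand for Rpl41, chr2:39005102-39005151, minus strand for Rpl35, chr7:4792945-4792994, plus strand for Rpl28, chr17:46782627-46782676, minus strand for Rpl7l1, chr9:66946066-66946115, plus strand for Rps27l and chr15:80264277-80264326, minus strand for Rps19bp1. The first 4 genes belong to the large subunit and were among those with the greatest difference between the genotypes under injury. In KO livers the change under injury did not pass for Rpl7l1, Rps27l and Rps19bp1. The 7 starts shown are those with a match. Of these 7, only Rpl35 and Rpl28 read as a pyrimidine run from the RefSeq start on. In Rpl7l1 the match to CTTTCC is on the other strand, so that it reads as purines in the message. Whether the RefSeq starts are those used in these livers was not tested. The starts of Rps15, Rpl13 and Rpl5 were also read, and their 50 bases carried neither motif. For Rps15 and Rpl13 the change under injury differed more between the genotypes than for Rpl41 and Rpl35. The RefSeq promoter table held entries for 67 of the 87 genes, 57 of them subunit or stalk genes. In the window from 250 bases before to 50 after the start, CTTTCC on either strand was present in 29 of these 57 (50.9%) and in 29.3% of all 27025 genes with an entry. From 50 bases before to 50 after the start, on the strand of the gene, it was present in 31.6% of the 57 and in 5.43% of all genes. CGGAAG on either strand was present in 40 of the 57 (70.2%) and in 18.8% of all genes, and CACGTG, the E-box that Myc and other factors bind, in 10.5% and 8.09%. Among the 10 paralogs and binding or assembly genes with an entry, CTTTCC was present in 7, CGGAAG in 4 and CACGTG in 0. A match of letters is a description and not a site of binding.

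Expression was given as FPKM, fragments for each kilobase of a gene, scaled by all fragments assigned in the library, and the assigned fragments that these values imply ran from 18381670 to 24799143 per library. Tests were made on log2(FPKM + 1), so that log2 differences understate the change of genes near 1 FPKM, with limma over 13708 genes that had at least 1 FPKM in 2 or more libraries. Adjusted p-values are Benjamini-Hochberg values over all 13708 genes with a threshold of 0.05, and genes are said to have risen or fallen only where they passed. Glul had 107 and 106 FPKM in the floxed H2O libraries and 358 and 237 FPKM in the floxed injury libraries. In KO livers Glul had 89.8 and 134 FPKM after H2O and 74.6 and 90.1 FPKM after injury. The difference between KO and floxed livers was -1.82 ± 0.27 (SE; adjusted p = 0.00135) under injury and 0.05 ± 0.27 (SE; adjusted p = 1) under H2O. Markers of hepatocytes were abundant in every library, with a summed level between 27761 and 41681 FPKM for 7 genes, whereas 7 of 8 markers of striated muscle stayed under 1 FPKM in every library and 1 was at 0. The 2 injured KO libraries stood apart from the others by their haemoglobin genes, which took 2.00% and 0.285% of fragments against 0.00443% to 0.0228% in the other 6.

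Messages of the ribosomal proteins were more abundant in injured KO livers than in any other group, while in floxed livers their sum was lower after injury than after H2O. The 87 genes together had 5566 and 5837 FPKM in the floxed H2O libraries, 4569 and 5179 FPKM in the floxed injury libraries, 4539 and 5876 FPKM in the KO H2O libraries and 16764 and 11979 FPKM in the KO injury libraries. Both injured KO libraries lay above the other 6, and the 2 H2O groups overlapped. As a share of all fragments, the genes took 0.946% and 0.990% in H2O-treated floxed, 0.818% and 0.911% in injured floxed, 0.755% and 0.993% in H2O-treated KO and 2.70% and 1.98% in injured KO livers. In bulk tissue a different mix of cells and a different amount of RNA per cell cannot be told apart. Of the 87 genes 84 were tested, and each of the 84 reached 1 FPKM in at least 2 of the 4 H2O libraries, so that none entered only through the injured KO livers. Rpl3l, Rpl39l and Rpl10l were not tested.

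**Figure D1:**
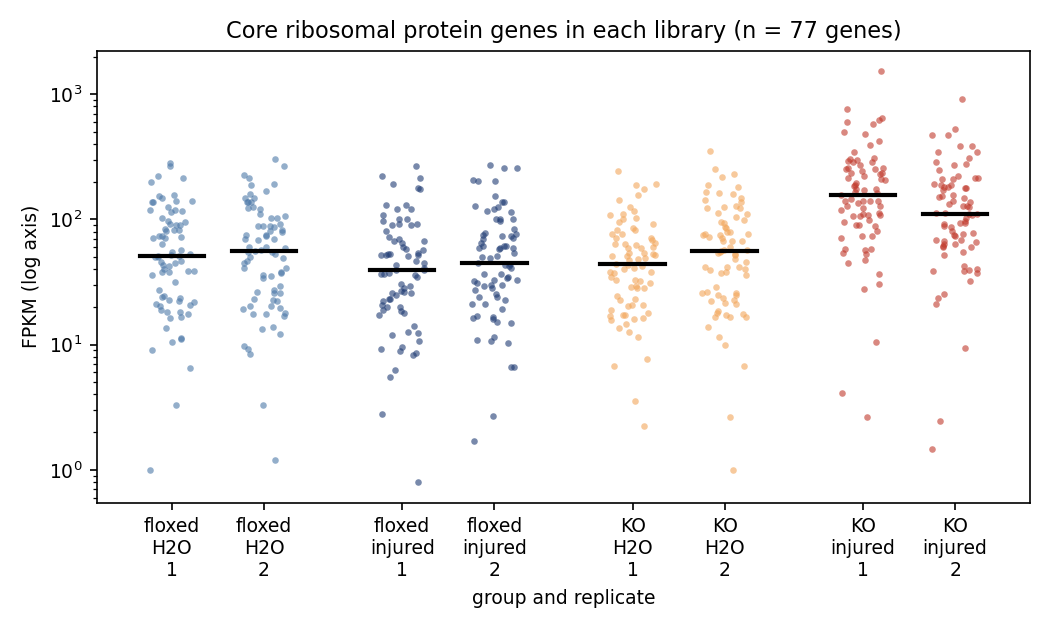
FPKM (log axis) of the 77 large-subunit, small-subunit and stalk genes in each of the 8 libraries, named by genotype, treatment and replicate. Each dot is a gene and each line the median of a library, which was 51.0 and 56.1 in H2O-treated floxed, 39.8 and 44.8 in injured floxed, 44.5 and 55.6 in H2O-treated KO and 156.8 and 110.6 in injured KO livers.

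In 77 of the 84 tested genes both injured KO libraries were above all 6 others, as were 17.9% of the 13708 genes tested. The 7 exceptions were Rpl24, Rps10, Rpl36al, Rps23rg1, Rps27l, Rpl7l1 and Rps19bp1. Between the injured KO libraries themselves, replicate 1 had the higher value in 82 of 84 genes, the exceptions being Rpl7l1 and Rps19bp1. Replicate 1 is also the library with the greater haemoglobin share. The order of the 77 subunit and stalk genes by level was similar in every library. Its Spearman correlation with their mean in the 4 H2O libraries was between 0.905 and 0.936 in the injured libraries. In the H2O libraries, which are part of that mean, it was between 0.985 and 0.996. All libraries share the table and its gene lengths. In the H2O libraries these 77 genes ranged from 1.36 to 296 FPKM with a median of 50.3. The lowest were Rpl24 with 1.36, Rps10 with 3.19 and Rpl13a with 7.12 FPKM, and the highest were Rplp1 with 296 and Rpl19 with 244 FPKM. Low values need not mean few messages, because reads that also match a processed pseudogene or an overlapping gene may have been given to it or left out, and the sources used here do not give the counting rule.

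Without injury no ribosomal protein gene passed the test between the genotypes. In H2O-treated livers 0 of 84 genes passed the limma test in either direction, 0 had an unadjusted p under 0.05, and 0.00730% of all genes passed. The median log2 difference of the 84 genes, KO minus floxed, was -0.13, against -0.09 for all genes tested. The H2O-treated KO libraries spread widely, since Rplp0 had 63.7 and 143 FPKM and Rps6, the substrate of the S6 kinases, had 81.8 and 122 FPKM in them. With voom on the recovered fragments 0 of 84 passed as well.

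In floxed livers more ribosomal protein genes fell than rose under injury, as did genes over the whole set tested, and both shares were under those of all genes. Of 84 genes 5 rose (5.95%) and 20 fell (23.8%), beside 18.5% and 38.8% of all genes tested. The median log2 change was -0.28 and that of all genes was -0.28 as well. Centring the libraries on their medians moved the counts to 7 rises and 13 falls and the median to -0.00, and quantile normalisation gave 12 rises and 15 falls. Over all genes, median centring moved the split from 2537 higher and 5324 lower to 3759 and 3804. The large subunit had 2 rises and 13 falls of 43 (median -0.37), the small subunit 1 and 4 of 31 (median -0.13), and the stalk 1 and 0 of 3 (median 0.17).

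Among the largest falls in floxed livers were those of Rpl35a (-1.35), Rpl36 (-1.15), Rpl28 (-1.08), Rps23rg1 (-1.03) and Rps27l (-0.99), all as log2 changes. Rpl35a, a large-subunit protein whose human gene is mutated in some cases of Diamond-Blackfan anaemia, had 18.2 and 17.7 FPKM in the floxed H2O libraries and 6.31 and 6.62 FPKM in the floxed injury libraries. In KO livers Rpl35a had 15.6 and 16.7 FPKM after H2O and 36.7 and 25.3 FPKM after injury. It was lower in both injured floxed libraries than in every other library, with a log2 change of -1.35 ± 0.19 (SE; adjusted p = 0.000781) in floxed and 0.88 ± 0.19 (SE; adjusted p = 0.00469) in KO livers. Leaving out single libraries moved the number of rises to between 1 and 6 and that of falls to between 7 and 23. The counts were 1 rise and 10 falls without replicate 1 of the floxed H2O libraries, 2 and 10 without replicate 2 of them, and 1 and 7 without replicate 1 of the floxed injury libraries. They were 2 rises without injured floxed replicate 2 and 3 rises without either injured KO library.

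The 5 genes that rose in injured floxed livers were Rpl7l1, Rplp0, Rpl5, Rpl9 and Rps4x. Rpl5, which binds the 5S ribosomal RNA together with Rpl11 and can carry it to Mdm2, had 44.8 and 44.7 FPKM in the floxed H2O libraries and 81.1 and 83.4 FPKM in the floxed injury libraries. In KO livers Rpl5 had 32.6 and 45.7 FPKM after H2O and 113 and 93.3 FPKM after injury. Its 2 injured floxed values were above all 4 H2O values, and its log2 change was 0.86 ± 0.20 (SE; adjusted p = 0.00833) in floxed and 1.38 ± 0.20 (SE; adjusted p = 0.00076) in KO livers. Rpl11, its partner in the same particle, had 74.01 and 74.7 FPKM in the floxed H2O libraries and 39.8 and 42.7 FPKM in the floxed injury libraries. In KO livers Rpl11 had 59.6 and 70.7 FPKM after H2O and 163 and 113 FPKM after injury. Its log2 change was -0.84 ± 0.21 (SE; adjusted p = 0.0116) in floxed livers, where it fell, and 1.05 ± 0.21 (SE; adjusted p = 0.00353) in KO livers, where it rose. Without either H2O-treated floxed library or injured floxed replicate 1 the fall of Rpl11 had an adjusted p between 0.0541 and 0.0698. Rpl9, a large-subunit protein, had 18.9 and 19.1 FPKM in H2O-treated and 30.7 and 32.3 in injured floxed livers, with a log2 change of 0.70 ± 0.18 (SE; adjusted p = 0.0132), and the call was lost without any of these 4 libraries in turn (adjusted p between 0.0548 and 0.0671). Rps4x, the X-linked small-subunit protein, had 72.7 and 88.9 FPKM in H2O-treated and 131 and 129 in injured floxed livers, with a log2 change of 0.68 ± 0.25 (SE; adjusted p = 0.0488), and its call was lost without any of the same 4 libraries or either injured KO library (adjusted p between 0.0614 and 0.222) and with the replicate block (0.055).

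In KO livers injury raised nearly every ribosomal protein gene. Of 84 genes 77 rose and 1 fell, beside 22.3% and 40.7% of all genes tested, and their median log2 change was 1.34, against -0.28 for all genes. The large subunit had 42 rises of 43 (median 1.10), the small subunit 30 of 31 (median 1.60) and the stalk 3 of 3 (median 2.11). Among the largest rises were those of Rpl41 (2.72), Rplp0 (2.44), Rps3 (2.38), Rps9 (2.25) and Rps21 (2.19). Rps23rg1 was the gene that fell. The genes that did not pass were Rpl24, Rps10, Rpl36al, Rps27l, Rpl7l1 and Rps19bp1. Leaving out single libraries gave between 67 and 77 rises, with 67 without injured KO replicate 1 and 77 without replicate 2. Over all genes, median centring moved the split in KO livers from 3062 higher and 5577 lower to 3890 and 4185. Averaged over both genotypes, 47 of the 84 genes rose and 3 fell, beside 24.1% and 45.1% of all genes, with a median of 0.46 against -0.26. That average moved to 69 rises, 1 fall and a median of 0.71 with median centring, which turned the split over all genes from 3301 higher and 6180 lower to 4664 and 4549.

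**Figure D2:**
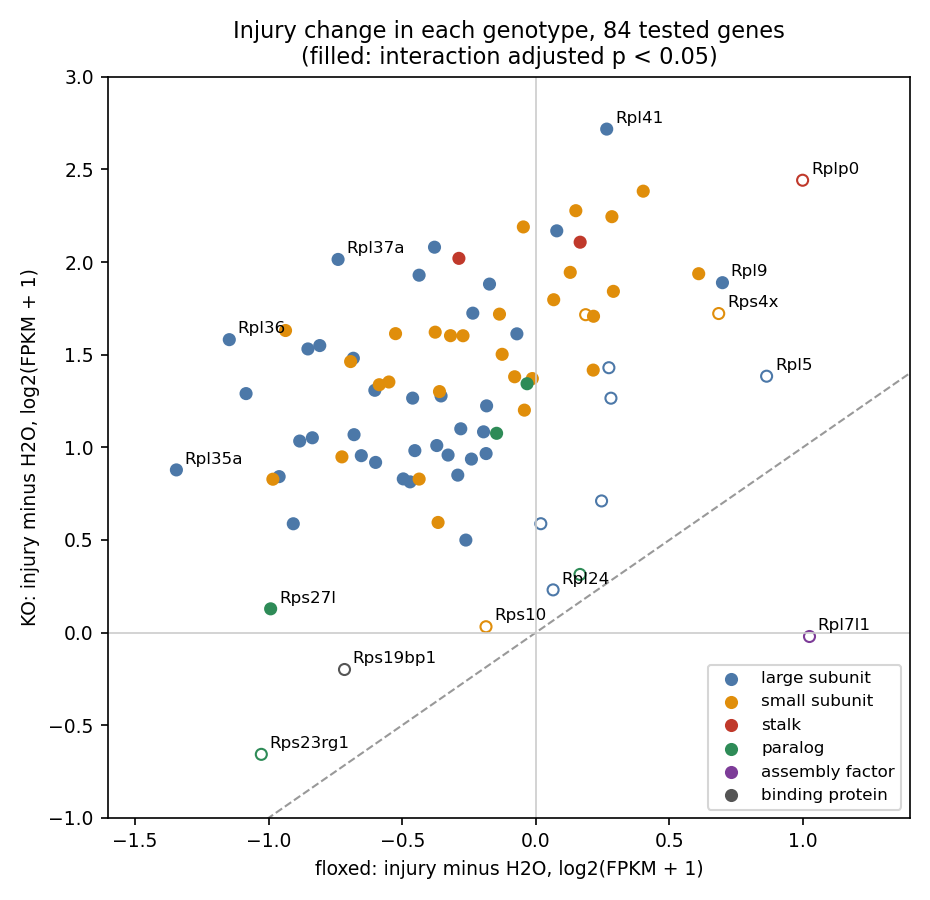
Log2 change under injury in floxed livers (x axis) and in KO livers (y axis), both on the log2(FPKM + 1) scale, for the 84 tested genes, coloured by role; the dashed line marks equal change. Filled dots are the 70 genes whose interaction passed, all of them above the line, and Rpl7l1 lies below it at 1.02 in floxed and -0.02 in KO livers.

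Set side by side under injury, KO livers had more of 77 ribosomal protein messages and less of 1 than floxed livers, of 84 tested, where 25.3% and 27.2% of all genes were higher and lower. The median log2 difference was 1.51, against -0.04 for all genes. The large subunit had 39 of 43 genes higher (median 1.34), the small subunit 30 of 31 (median 1.68) and the stalk 3 of 3 (median 1.97). The 6 largest differences were those of Rpl36 (2.94), Rpl37a (2.87), Rpl38 (2.74), Rps21 (2.68), Rpl41 (2.53) and Rps15 (2.42). Rpl7l1 was the gene that was lower. Rpl4, Rpl5, Rpl10, Rpl24, Rps10 and Rpl36al did not pass. Without the injured KO library with the most haemoglobin 66 genes were higher, and over all libraries left out in turn the number ran from 65 to 78.

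The change under injury itself differed between the genotypes for most of these genes. The interaction, the change in KO minus the change in floxed livers, passed for 70 of 84 genes. All 70 were positive and 0 negative, beside 20.9% and 15.1% of all genes (36.0% in either direction). A positive value means a log2 change that was more positive in KO livers. For genes that fell in floxed livers it need not mean a larger change in KO livers. Quantile normalisation turned the split over all genes from 2871 higher and 2069 lower to 2452 and 2647, with 63 of the 84 higher and 1 lower. The median interaction was 1.62 on the log2 scale, against 0.03 for all genes. By role it passed for 37 of 43 large-subunit genes (median 1.61), 28 of 31 small-subunit genes (median 1.73) and 2 of 3 stalk genes (median 1.94). Leaving out 1 library at a time gave between 53 and 73 genes, the fewest without injured floxed replicate 1. The comparisons share their libraries, so their values are not separate support for each other.

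The stalk proteins, which recruit elongation factors to the ribosome, had the highest medians. Rplp0, the base of the stalk, had 102 and 138 FPKM in the floxed H2O libraries and 221 and 256 FPKM in the floxed injury libraries. In KO livers Rplp0 had 63.7 and 143 FPKM after H2O and 582 and 471 FPKM after injury. Both injured groups lay above both H2O groups, with injured KO livers above injured floxed livers. The log2 change of Rplp0 was 0.999 ± 0.37 (SE; adjusted p = 0.0473) in floxed and 2.44 ± 0.37 (SE; adjusted p = 0.000799) in KO livers and its interaction 1.44 ± 0.52 (SE; adjusted p = 0.0626) did not pass. The rise in floxed livers was lost without any floxed or injured KO library in turn (adjusted p between 0.0685 and 0.208), and the interaction passed without replicate 2 of the KO H2O libraries (adjusted p = 0.012). Between the injured groups its log2 difference was 1.13 ± 0.37 (SE; adjusted p = 0.0325), with adjusted p between 0.0689 and 0.15 without any 1 of the 4 injured libraries, 0.105 with no filter on low values and 0.0848 with rescaling to a common sum. Rplp1 and Rplp2 form the arms of the stalk. Rplp1 had 284 and 307 FPKM in the floxed H2O libraries and 214 and 273 FPKM in the floxed injury libraries. In KO livers Rplp1 had 243 and 349 FPKM after H2O and 1524 and 923 FPKM after injury. Only the injured KO values stood apart, and the interaction was 2.31 ± 0.42 (SE; adjusted p = 0.00622). Rplp2 had 17.6 and 20.2 FPKM in the floxed H2O libraries and 19.9 and 22.8 FPKM in the floxed injury libraries. In KO livers Rplp2 had 16.3 and 22.6 FPKM after H2O and 108 and 68.7 FPKM after injury. Its injured KO values were also the highest, and its interaction was 1.94 ± 0.36 (SE; adjusted p = 0.00639). The log2 changes in floxed livers, -0.29 for Rplp1 (adjusted p = 0.436) and 0.17 for Rplp2 (adjusted p = 0.6), had opposite signs and did not pass.

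**Figure D3:**
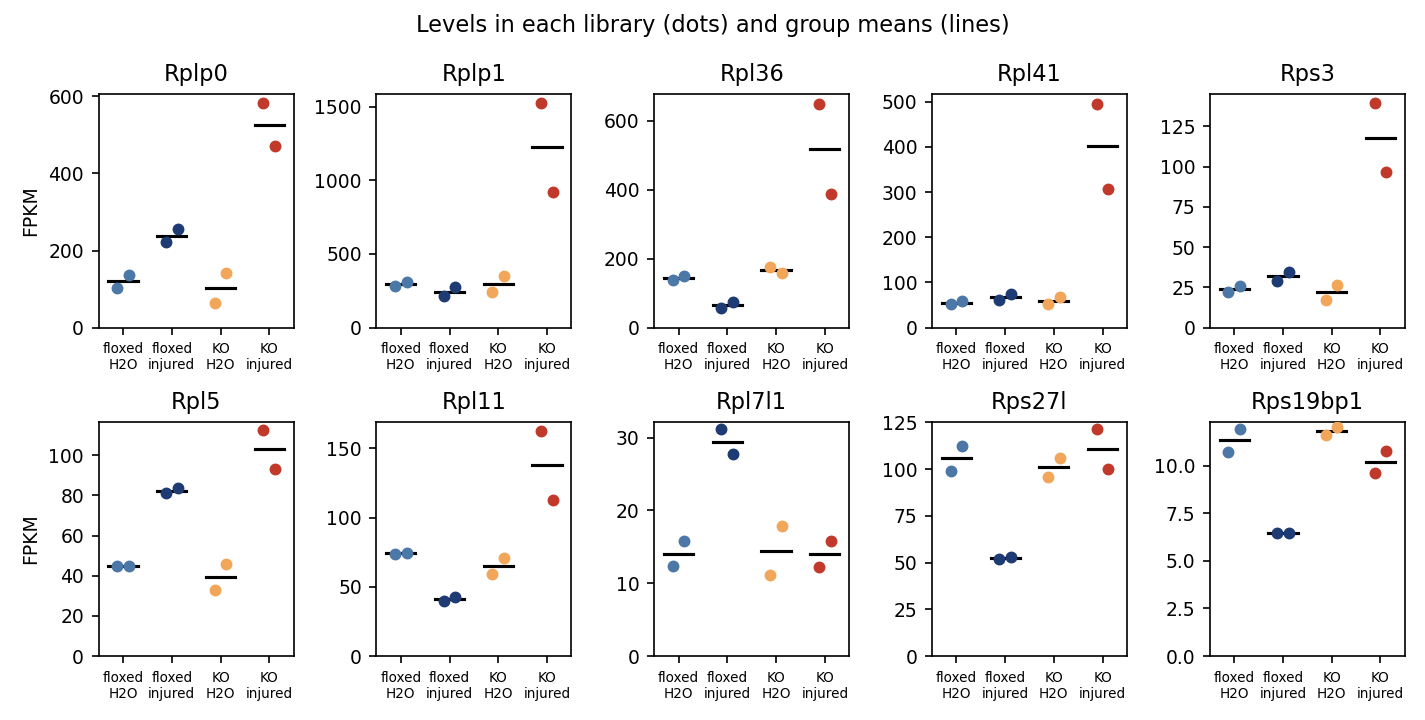
FPKM of 10 genes in each library (dots) with the mean of each group (line), for floxed and KO livers under H2O and injury, each panel with its own axis from 0. Rplp1, Rpl36, Rpl41 and Rps3 were high in injured KO livers alone, Rpl5 and Rplp0 rose in both genotypes, and Rpl7l1 was highest in injured floxed livers (31.2 and 27.7 FPKM).

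Among large-subunit genes the greatest interactions were those of Rpl37a (2.75), Rpl36 (2.73), Rpl13 (2.46), Rpl41 (2.45) and Rpl35 (2.38). Rpl37a, one of the zinc-binding proteins of the subunit, had 20.6 and 22.3 FPKM in the floxed H2O libraries and 9.30 and 16.6 FPKM in the floxed injury libraries. In KO livers Rpl37a had 23.2 and 23.6 FPKM after H2O and 127 and 74.9 FPKM after injury. Its interaction was 2.75 ± 0.44 (SE; adjusted p = 0.00394), while the log2 change in floxed livers, -0.74 ± 0.31 (SE; adjusted p = 0.0736), did not pass. Without injured floxed replicate 2 or either injured KO library that fall of Rpl37a passed (adjusted p between 0.0297 and 0.0476). Rpl36 had 139 and 149 FPKM in the floxed H2O libraries and 56.9 and 73.2 FPKM in the floxed injury libraries. In KO livers Rpl36 had 175 and 159.5 FPKM after H2O and 649.5 and 387 FPKM after injury. Its injured groups lay on opposite sides of the H2O groups. The log2 change of Rpl36 was -1.15 ± 0.27 (SE; adjusted p = 0.00791) in floxed and 1.58 ± 0.27 (SE; adjusted p = 0.00147) in KO livers, the former with an adjusted p of 0.0645 without injured floxed replicate 1, and its interaction was 2.73 ± 0.38 (SE; adjusted p = 0.00265). Rpl41, which codes for the shortest of the ribosomal proteins, had 51.2 and 59.7 FPKM in the floxed H2O libraries and 60.3 and 73.6 FPKM in the floxed injury libraries. In KO livers Rpl41 had 51.1 and 66.98 FPKM after H2O and 496 and 307 FPKM after injury. It had the largest log2 change of the 84 genes in KO livers, 2.72 ± 0.27 (SE; adjusted p = 0.000119), and its start shown carries CGGAAG but not CTTTCC. Rpl28, whose start shown carries CTTTCC on its own strand, had 63.4 and 68.7 FPKM in the floxed H2O libraries and 28.5 and 32.8 FPKM in the floxed injury libraries. In KO livers Rpl28 had 60.6 and 67.3 FPKM after H2O and 195 and 128 FPKM after injury. Its log2 change was -1.08 ± 0.23 (SE; adjusted p = 0.00478) in floxed and 1.29 ± 0.23 (SE; adjusted p = 0.00174) in KO livers.

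The small-subunit genes were led in the interaction by Rps15 (2.57). Rps15, a late-assembling protein of the head of the subunit, had 224 and 228 FPKM in the floxed H2O libraries and 99.96 and 138 FPKM in the floxed injury libraries. In KO livers Rps15 had 191 and 216 FPKM after H2O and 763 and 523 FPKM after injury. The injured floxed libraries were the lowest of the 8 and the injured KO libraries the highest, and the interaction was 2.57 ± 0.35 (SE; adjusted p = 0.00258). The log2 change of Rps15 in floxed livers was -0.94 ± 0.25 (SE; adjusted p = 0.0141), and this fall was lost without either H2O-treated floxed library or injured floxed replicate 1 (adjusted p between 0.0602 and 0.109). Rps3, a protein of the message entry channel, had 21.8 and 25.9 FPKM in the floxed H2O libraries and 29.1 and 34.5 FPKM in the floxed injury libraries. In KO livers Rps3 had 17.3 and 26.6 FPKM after H2O and 139 and 96.7 FPKM after injury. Its change of 0.40 ± 0.26 (SE; adjusted p = 0.223) in floxed livers did not pass, that of 2.38 ± 0.26 (SE; adjusted p = 0.000192) in KO livers did, and the interaction was 1.98 ± 0.37 (SE; adjusted p = 0.00662). Rpsa, which also serves as a laminin receptor, had 139 and 137 FPKM in the floxed H2O libraries and 101 and 114 FPKM in the floxed injury libraries. In KO livers Rpsa had 101 and 138 FPKM after H2O and 312 and 275 FPKM after injury, and its interaction was 1.66 ± 0.29 (SE; adjusted p = 0.00545). Rps6, phosphorylated by the S6 kinases below mTORC1, had 118 and 137 FPKM in the floxed H2O libraries and 122 and 125 FPKM in the floxed injury libraries. In KO livers Rps6 had 81.8 and 122 FPKM after H2O and 285 and 188 FPKM after injury. Its interaction was 1.24 ± 0.38 (SE; adjusted p = 0.0386), and it was lost without any 1 of the 4 floxed libraries, H2O-treated KO replicate 1 or injured KO replicate 1 (adjusted p between 0.0733 and 0.114), and with no filter, quantile normalisation, rescaling to a common sum or the replicate block (0.0569 to 0.109).

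For 9 genes of the 2 subunits the interaction did not pass, which does not show that they differed from the rest. Rpl10, which is among the last proteins to join the large subunit, had 158 and 161 FPKM in the floxed H2O libraries and 176 and 202 FPKM in the floxed injury libraries. In KO livers Rpl10 had 126 and 163 FPKM after H2O and 259 and 214 FPKM after injury, and its interaction of 0.46 ± 0.29 (SE; adjusted p = 0.248) did not pass. Rpl34 had 43.4 and 40.7 FPKM in the floxed H2O libraries and 40.8 and 44.4 FPKM in the floxed injury libraries. In KO livers Rpl34 had 40.5 and 41.8 FPKM after H2O and 70.8 and 54.9 FPKM after injury, with an interaction of 0.57 ± 0.25 (SE; adjusted p = 0.114). In Rpl10 and Rpl34 the injured KO libraries were the highest of the 8, with log2 differences from injured floxed livers of 0.31 and 0.54 beside the median of 1.51. Rpl24 and Rps10 were low throughout, between 0.796 and 2.62 FPKM and between 2.44 and 4.08 FPKM, and their interactions were 0.17 (adjusted p = 0.784) and 0.22 (adjusted p = 0.581). Further genes whose interaction did not pass were Rpl3 (1.16, adjusted p = 0.0579), Rpl4 (0.98, adjusted p = 0.132), Rpl5 (0.52, adjusted p = 0.197), Rps4x (1.04, adjusted p = 0.0555) and Rps29 (1.53, adjusted p = 0.0555). For Rps4x the value passed without replicate 2 of the KO H2O libraries (adjusted p = 0.0174).

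The paralogs that mark muscle and testis were close to absent. Rpl3l, the paralog of Rpl3 in heart and skeletal muscle, ran from 0 to 0.245 FPKM, which is between 0 and 10 fragments per library and at most 0.541% of Rpl3. Rpl39l, a paralog of Rpl39 known from testis, had 0.0564 FPKM in H2O-treated KO replicate 1 and 0.0971 in injured KO replicate 1, which are 1 and 2 fragments, and was at 0 in the other 6. Rpl10l, the testis paralog of Rpl10, was at 0 in all 8. With fragments this few, no difference of Rpl3l, Rpl39l or Rpl10l between groups could be detected at this depth. Rpl22l1, the paralog that can replace Rpl22 in the large subunit, was expressed, with 4.73 and 3.99 FPKM in the floxed H2O libraries and 4.04 and 3.62 FPKM in the floxed injury libraries. In KO livers Rpl22l1 had 5.87 and 4.68 FPKM after H2O and 14.5 and 10.2 FPKM after injury. Rpl22l1 kept between 15.4% and 28.5% of the level of Rpl22 in the 8 libraries and rose in KO livers by 1.08 ± 0.19 (SE; adjusted p = 0.00199), beside 1.08 ± 0.18 (SE; adjusted p = 0.00128) for Rpl22. Rpl36al ran from 1.00 to 2.44 FPKM, at most 6.84% of Rpl36a, and its log2 change in KO livers was 0.31 ± 0.21 (SE; adjusted p = 0.213). With median centring and quantile normalisation that change passed, with adjusted p of 0.0443 and 0.0351.

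Rps27l, a paralog of Rps27 that is a p53 target gene, fell in floxed livers and did not pass in KO livers. It had 99.02 and 112 FPKM in the floxed H2O libraries and 51.9 and 53.1 FPKM in the floxed injury libraries. In KO livers Rps27l had 95.9 and 106 FPKM after H2O and 122 and 99.96 FPKM after injury. The injured floxed libraries were the lowest and the other groups overlapped, with a log2 change of -0.99 ± 0.18 (SE; adjusted p = 0.00253) in floxed and 0.13 ± 0.18 (SE; adjusted p = 0.556) in KO livers. Rps27 itself had 24.6 and 23.2 FPKM in the floxed H2O libraries and 17.2 and 27.6 FPKM in the floxed injury libraries. In KO livers Rps27 had 24.5 and 25.04 FPKM after H2O and 80.9 and 64.02 FPKM after injury, so that Rps27l stood at 402% and 485% of Rps27 in floxed H2O, 302% and 193% in injured floxed, 391% and 423% in H2O-treated KO and 150% and 156% in injured KO livers. The interaction of Rps27l, 1.12 ± 0.26 (SE; adjusted p = 0.0133), was lost without H2O-treated floxed replicate 2 or injured floxed replicate 1 (adjusted p of 0.0565 and 0.0526) and with quantile normalisation (0.0615). Rps27rt, a retroposed copy of Rps27 whose reads may be hard to tell from those of its parent, had 12.2 and 15.2 FPKM in the floxed H2O libraries and 12.1 and 14.6 FPKM in the floxed injury libraries. In KO livers Rps27rt had 11.7 and 15.4 FPKM after H2O and 41.3 and 30.6 FPKM after injury. Over the 8 libraries it stood between 47.6% and 70.1% of Rps27, and its interaction was 1.38 ± 0.31 (SE; adjusted p = 0.013), which had an adjusted p of 0.0546 without injured floxed replicate 1. Rps23rg1, a retroposed copy of Rps23, had 1.44 and 0.754 FPKM in the floxed H2O libraries and 0 and 0.0306 FPKM in the floxed injury libraries. In KO livers Rps23rg1 had 1.47 and 1.31 FPKM after H2O and 0.596 and 0.440 FPKM after injury. It fell under injury in both genotypes, with log2 changes of -1.03 ± 0.18 (SE; adjusted p = 0.00231) in floxed and -0.66 ± 0.18 (SE; adjusted p = 0.0149) in KO livers, whereas Rps23 rose in KO livers by 1.61 ± 0.21 (SE; adjusted p = 0.000397). The fall in KO livers was lost without H2O-treated KO replicate 1 or injured KO replicate 2 (adjusted p of 0.0641 and 0.0609) and with median centring or quantile normalisation (0.0721 and 0.108). At levels near 1 FPKM the added 1 FPKM shrinks the change of Rps23rg1.

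Rpl7l1 and Rps19bp1 match the symbol rule without coding for a protein of the ribosome. Rpl7l1, a relative of Rpl7 that acts in the assembly of the large subunit, had 12.3 and 15.8 FPKM in the floxed H2O libraries and 31.2 and 27.7 FPKM in the floxed injury libraries. In KO livers Rpl7l1 had 11.1 and 17.9 FPKM after H2O and 12.3 and 15.8 FPKM after injury. Its injured floxed values were the highest and the other groups overlapped. The log2 change of Rpl7l1 was 1.02 ± 0.25 (SE; adjusted p = 0.00906) in floxed and -0.02 ± 0.25 (SE; adjusted p = 0.957) in KO livers, and its log2 difference between injured KO and injured floxed livers was -1.03 ± 0.25 (SE; adjusted p = 0.01). Relative to Rpl7 it stood at 47.8% and 39.7% in injured floxed and 7.17% and 12.5% in injured KO livers. In the H2O libraries the share was between 16.9% and 23.9%. The difference between injured groups had an adjusted p of 0.0625 without injured floxed replicate 1 and 0.065 without injured KO replicate 1, and the rise in floxed livers 0.0615 without replicate 1 of the floxed H2O libraries and 0.059 without replicate 1 of the floxed injury libraries. The interaction, -1.04 ± 0.35 (SE; adjusted p = 0.051), did not pass. It passed when replicate 1 of the KO H2O libraries was left out (adjusted p = 0.0227), with the replicate block (0.0399), and with 5 other settings (adjusted p between 0.0236 and 0.0364), namely a mean of at least 5 FPKM, quantile normalisation, a common sum, scaling without mitochondrial and haemoglobin genes, and voom. Rps19bp1 codes for a nucleolar protein that binds Rps19 and the deacetylase Sirt1. It had 10.7 and 11.9 FPKM in the floxed H2O libraries and 6.48 and 6.46 FPKM in the floxed injury libraries. In KO livers Rps19bp1 had 11.6 and 12.01 FPKM after H2O and 9.61 and 10.8 FPKM after injury. The injured floxed values were the lowest, with a log2 change of -0.72 ± 0.14 (SE; adjusted p = 0.00315) in floxed livers and -0.20 ± 0.14 (SE; adjusted p = 0.24) in KO livers, where it did not pass. Rps19, its binding partner, rose in KO livers by 1.71 ± 0.20 (SE; adjusted p = 0.000227).

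The table also holds 322 rows named as pseudogenes of these genes, 314 of them processed pseudogenes, and their level bears on how far reads were shared. Their summed FPKM was between 7.91% and 9.86% of that of the 87 genes in every library. It was 549 and 562 in H2O-treated floxed, 408 and 410 in injured floxed, 417 and 519 in H2O-treated KO and 1470 and 1019 in injured KO livers. Of 67 such rows tested, 47 were higher and 0 lower in KO livers when the injured groups were compared, beside 25.3% and 27.2% of all genes, with a median of 1.12. Among the 77 subunit and stalk genes, the number of pseudogene rows ran from 0 (15 genes) to 24 and had a Spearman correlation of 0.16 with the level in the H2O libraries. How reads that match both a gene and its pseudogene were assigned is not given, so the level of single genes is uncertain to that extent.

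Within the 77 subunit and stalk genes, shorter coding sequences went with a greater excess in injured KO livers, while summed exon length, by which FPKM is divided, gave a correlation like that over all genes. The Spearman correlation between coding length and the log2 difference between injured KO and injured floxed livers was -0.56 (Pearson r = -0.55 with log2 length, 77 genes), and it was -0.22 over 10986 tested genes with a coding length. With summed exon length it was -0.32 in the 77 genes and -0.31 over all. All points come from the same 4 libraries, so the correlation is a description. The 40 genes of at most 468 coding bases had a median of 1.83 with 40 of 40 higher. The 37 longer genes had a median of 1.19 with 32 of 37 higher, and 25.3% of all genes tested were higher. Coding length is that of the longest coding sequence annotated for any transcript of the gene, which need not be the main one. Rpl41, Rpl38 and Rpl37a, with 138, 210 and 276 such bases, were among the greatest differences. Rpl4 and Rpl3, the longest with 1257 and 1209, had 0.78 and 1.02. A correlation of like size, -0.61, was seen between the H2O-treated groups, where 0 genes passed, against -0.06 over all genes. With summed exon length that correlation was -0.16, against 0.02 over all genes. The correlation of coding length with the change under injury was 0.30 in floxed livers and -0.12 in KO livers. Genes were also split by a motif on either strand anywhere from 250 bases before to 50 after the start, which is not the position of the TOP tract. The median interaction was 1.63 for the 29 genes with and 1.78 for the 28 without CTTTCC. It was 1.76 for the 40 with and 1.52 for the 17 without CGGAAG.

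**Figure D4:**
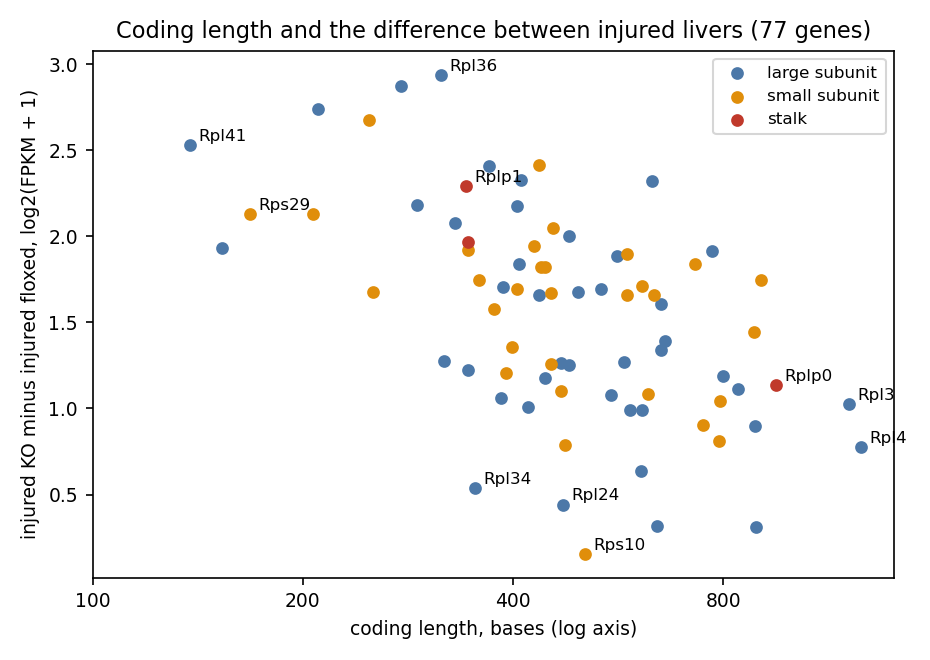
Coding length in bases (log axis) and log2 difference between injured KO and injured floxed livers on the log2(FPKM + 1) scale, for the 77 large-subunit, small-subunit and stalk genes, coloured by role. Genes of at most 468 coding bases had a median of 1.83 and longer genes one of 1.19.

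Other genes of the translation machinery were read from lists chosen for their roles. Fau, which codes for a small-subunit protein made as a fusion with a ubiquitin-like protein, and Rack1, a scaffold on the small subunit, also belong to the cytosolic ribosome. Fau had 70.8 and 84.8 FPKM in the floxed H2O libraries and 53.7 and 65.4 FPKM in the floxed injury libraries. In KO livers Fau had 77.3 and 79.3 FPKM after H2O and 385 and 219.6 FPKM after injury, with an interaction of 2.26 ± 0.39 (SE; adjusted p = 0.00517). Rack1 had an interaction of 1.34 ± 0.31 (SE; adjusted p = 0.0146), and this call was lost when replicate 2 of the floxed H2O libraries (adjusted p = 0.0502) or replicate 1 of the floxed injury libraries (adjusted p = 0.0598) was left out.

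Of 22 other messages with a TOP tract, Fau and Rack1 among them, 4 rose (18.2%, beside 18.5% of all genes) and 1 fell (4.55%, beside 38.8%) in floxed livers, with a median of 0.15. In KO livers 17 rose (77.3%, beside 22.3%) and 1 fell (4.55%, beside 40.7%), with a median of 0.84. Between the injured groups 9 were higher in KO livers (40.9%, beside 25.3%) and 2 lower (9.09%, beside 27.2%), with a median of 0.48. The interaction passed for 9 in the direction of KO (40.9%, beside 20.9%) and 1 in the other (4.55%, beside 15.1%), and for between 3 and 12 and between 0 and 1 with 1 library left out at a time, with the 3 without injured floxed replicate 1. Tpt1, the translationally controlled tumour protein, had 343 and 330.1 FPKM in the floxed H2O libraries and 209 and 222 FPKM in the floxed injury libraries. In KO livers Tpt1 had 249.6 and 286 FPKM after H2O and 561 and 463 FPKM after injury, and its interaction was 1.57 ± 0.27 (SE; adjusted p = 0.00513). Eef1d, a subunit of the factor that recharges Eef1a1 with GTP, had an interaction of 1.13 ± 0.24 (SE; adjusted p = 0.0101). Eef1a1, the elongation factor that brings aminoacyl-tRNA to the ribosome, had 826 and 944 FPKM in the floxed H2O libraries and 1248 and 1274 FPKM in the floxed injury libraries. In KO livers Eef1a1 had 499 and 887 FPKM after H2O and 1755 and 1478 FPKM after injury. Its 2 injured groups were both above the H2O groups, and neither its difference between them, 0.35 ± 0.29 (SE; adjusted p = 0.336), nor its interaction, 0.76 ± 0.41 (SE; adjusted p = 0.181), passed. The interaction of Eef1a1 passed without replicate 2 of the KO H2O libraries (adjusted p = 0.0245). Eif2s3x, the gamma subunit of the initiator tRNA factor, had a log2 difference between injured KO and injured floxed livers of -1.12 ± 0.25 (SE; adjusted p = 0.00682), with an adjusted p of 0.0524 when replicate 1 of the floxed injury libraries was left out. Eef1a1, Eif2s3x, Eif4ebp1 and Larp1 were named after their values were seen.

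**Figure D5:**
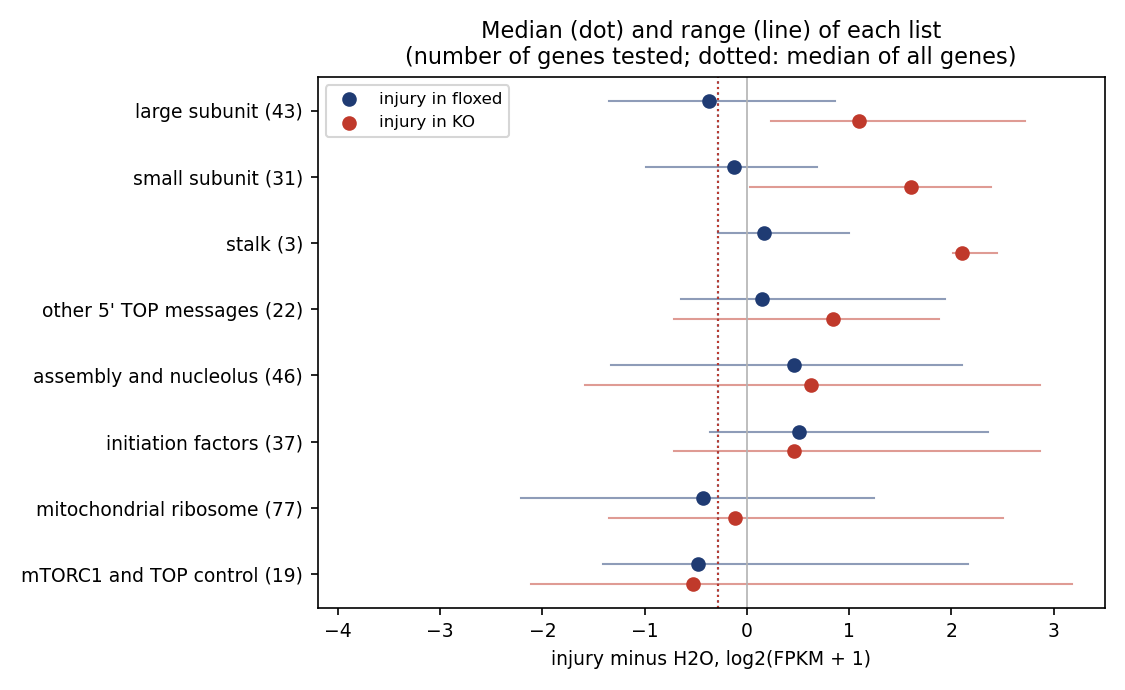
Median (dot) and range (line) of the log2 change under injury in floxed and KO livers for the genes tested of each list, on the log2(FPKM + 1) scale; dotted lines mark the median of all genes, -0.28 in both genotypes. The large-subunit, small-subunit and stalk medians were -0.37, -0.13 and 0.17 in floxed and 1.10, 1.60 and 2.11 in KO livers.

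Genes for ribosome assembly and the nucleolus rose more often than they fell under injury in both genotypes. Of 46 tested, 21 rose (45.7%, beside 18.5% of all genes) and 3 fell (6.52%, beside 38.8%) in floxed livers, with a median of 0.46. In KO livers 25 rose (54.3%, beside 22.3%) and 4 fell (8.70%, beside 40.7%), with a median of 0.63. Between the injured groups 8 were higher and 8 lower in KO livers (17.4% each, beside 25.3% and 27.2%), with a median of 0.03. The interaction passed for 7 in the direction of KO (15.2%, beside 20.9%) and 3 in the other (6.52%, beside 15.1%). With 1 library left out at a time the number higher in the interaction ran from 2 to 7, with 2 without either injured floxed library, H2O-treated floxed replicate 2, H2O-treated KO replicate 1 or injured KO replicate 1. Eif6, which keeps new large subunits from joining small ones, had 6.84 and 9.95 FPKM in the floxed H2O libraries and 38.1 and 39.7 FPKM in the floxed injury libraries. In KO livers Eif6 had 6.19 and 8.86 FPKM after H2O and 58.7 and 61.96 FPKM after injury. Both injured groups lay far above the H2O groups, with log2 changes of 2.11 ± 0.22 (SE; adjusted p = 0.0002) and 2.86 ± 0.22 (SE; adjusted p = 3.81e-05) and an interaction of 0.76 ± 0.31 (SE; adjusted p = 0.0917). Gar1, a protein of the pseudouridylation particles, was higher in KO livers between the injured groups, by 1.16 ± 0.14 (SE; adjusted p = 0.000555). Of 7 chaperones of single ribosomal proteins, 4 rose in floxed livers (57.1%, beside 18.5% of all genes) and 2 in KO livers (28.6%, near the 22.3%). In each genotype 0 fell, beside 38.8% and 40.7%. The interaction passed for 1, in the direction of floxed (14.3%, near the 15.1% of all genes). This was Heatr3, which carries Rpl5 into the nucleus and had an interaction of -1.15 ± 0.27 (SE; adjusted p = 0.0159). That call was lost without H2O-treated floxed replicate 1 or either injured floxed library (adjusted p between 0.0504 and 0.0526) and with no filter (0.0589).

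Initiation factors rose under injury in floxed livers in 17 of 37 genes (45.9%, beside 18.5% of all genes) with 0 falls (beside 38.8%), and a median of 0.51. In KO livers 16 rose (43.2%, beside 22.3%) and 5 fell (13.5%, beside 40.7%), with a median of 0.46. Between the injured groups 5 were higher in KO livers (13.5%, beside 25.3%) and 12 lower (32.4%, near the 27.2% of all genes), with a median of -0.33. These counts ran between 2 and 6 and between 3 and 15 with 1 library left out at a time, with 2 and 3 without injured floxed replicate 1. Eif1a, a scanning factor, had 7.56 and 10.7 FPKM in the floxed H2O libraries and 56.4 and 45.01 FPKM in the floxed injury libraries. In KO livers Eif1a had 8.47 and 10.95 FPKM after H2O and 23.7 and 35.3 FPKM after injury, with changes of 2.36 ± 0.26 (SE; adjusted p = 0.000242) in floxed and 1.49 ± 0.26 (SE; adjusted p = 0.00154) in KO livers. The 77 mitochondrial ribosomal proteins, which build the separate ribosome of that organelle, had 5 rises (6.49%, beside 18.5% of all genes) and 34 falls (44.2%, near the 38.8%) in floxed livers, with a median of -0.43. In KO livers 16 rose (20.8%, near the 22.3%) and 21 fell (27.3%, beside 40.7%), with a median of -0.12. Their interaction passed for 20 in the direction of KO (25.97%, near the 20.9% of all genes) and 6 in the other (7.79%, beside 15.1%), with a median of 0.27, and for between 10 and 25 and between 2 and 8 with 1 library left out, with the 10 without H2O-treated floxed replicate 2 and the 8 without H2O-treated KO replicate 1. Mrpl14 had 46.98 and 48.2 FPKM in the floxed H2O libraries and 8.80 and 10.2 FPKM in the floxed injury libraries. In KO livers Mrpl14 had 42.9 and 51.5 FPKM after H2O and 52.1 and 35.3 FPKM after injury, and its interaction was 2.08 ± 0.31 (SE; adjusted p = 0.003). The cytosolic and mitochondrial sets had median interactions of 1.62 and 0.27, beside 0.03 for all genes.

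Of 19 genes of mTORC1 and of the control of TOP messages, 5 rose (26.3%, beside 18.5% of all genes) and 10 fell (52.6%, beside 38.8%) in floxed livers, with a median of -0.48. In KO livers 4 rose (21.1%, near the 22.3%) and 11 fell (57.9%, beside 40.7%), with a median of -0.53. Between the injured groups 3 were higher in KO livers (15.8%, beside 25.3%) and 9 lower (47.4%, beside 27.2%), with a median of -0.35. Myc, a transcription factor with ribosomal protein genes among its targets, had 2.80 and 2.84 FPKM in the floxed H2O libraries and 3.30 and 2.97 FPKM in the floxed injury libraries. In KO livers Myc had 3.24 and 2.58 FPKM after H2O and 58.96 and 19.8 FPKM after injury. It stood apart in injured KO livers alone, with an interaction of 3.07 ± 0.58 (SE; adjusted p = 0.00704). Eif4ebp2, a repressor of cap-dependent initiation, had 31.1 and 31.1 FPKM in the floxed H2O libraries and 19.9 and 19.6 FPKM in the floxed injury libraries. In KO livers Eif4ebp2 had 29.6 and 30.03 FPKM after H2O and 7.23 and 7.88 FPKM after injury. Its values in injured KO livers were the lowest, with an interaction of -1.22 ± 0.20 (SE; adjusted p = 0.00407). Eif4ebp1 of the same list went the other way, with a rise of 1.59 ± 0.23 (SE; adjusted p = 0.000718) in KO livers. The interaction of Eif4ebp1, 0.90 ± 0.33 (SE; adjusted p = 0.0659), did not pass. Larp1 differed by -0.04 ± 0.16 (SE; adjusted p = 0.849) between the injured groups. Of 7 tested genes that link the ribosome to p53, 3 rose (42.9%) and 1 fell (14.3%) in each genotype. Over all genes 18.5% rose and 38.8% fell in floxed and 22.3% and 40.7% in KO livers. Between the injured groups 1 was higher (14.3%, beside 25.3%) and 3 lower (42.9%, beside 27.2%) in KO livers. Cdkn1a, the p53 target that halts the cell cycle, rose by 4.70 ± 0.19 (SE; adjusted p = 7.51e-06) in floxed and 4.27 ± 0.19 (SE; adjusted p = 4.47e-06) in KO livers. Mdm2, which is bound by Rpl5 and Rpl11 and is a p53 target itself, rose by 1.69 ± 0.27 (SE; adjusted p = 0.0014) and 0.85 ± 0.27 (SE; adjusted p = 0.0257), the second of these with adjusted p of 0.144 and 0.148 without replicate 2 of the KO H2O or KO injury libraries. Between the injured groups the log2 difference of Mdm2, KO minus floxed, was -0.996 ± 0.27 (SE; adjusted p = 0.0166), with adjusted p between 0.0617 and 0.103 without either injured floxed library or injured KO replicate 1. Mdm4, a relative of Mdm2 that holds p53 back, changed by -0.97 ± 0.23 (SE; adjusted p = 0.00769) and -1.19 ± 0.23 (SE; adjusted p = 0.00256), the first with an adjusted p of 0.0549 without replicate 1 of the floxed H2O libraries. Trp53, which codes for p53, had log2 values for injury minus H2O of -0.35 ± 0.15 (SE; adjusted p = 0.0752) in floxed and -0.23 ± 0.15 (SE; adjusted p = 0.198) in KO livers, and neither passed. The interaction passed for 1 of the 7 (14.3%, near the 15.1% of all genes in that direction). This was Map3k20, a kinase that responds to stalled ribosomes, at -0.98 ± 0.17 (SE; adjusted p = 0.00474).

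Markers of several cell types moved with the ribosomal protein genes. Beside the counts of markers between the injured groups, 25.3% of all genes were higher and 27.2% lower in KO livers. The 7 neutrophil markers had a summed level of 9.11 and 5.82 FPKM in floxed H2O, 98.2 and 164 in floxed injury, 6.37 and 4.84 in KO H2O and 955 and 996 in KO injury libraries, and 7 of 7 were higher in KO livers between the injured groups. The 5 red blood cell markers had 323 and 247 FPKM in floxed H2O, 84.5 and 89.99 in floxed injury, 171 and 244 in KO H2O and 26158 and 3741 in KO injury libraries, and 5 of 5 were higher. In both lists injured KO livers were the highest, as they were for the ribosomal protein genes. The 8 monocyte and macrophage markers had 49.8 and 83.5 FPKM in floxed H2O, 106 and 132 in floxed injury, 12.8 and 17.4 in KO H2O and 239.9 and 171 in KO injury libraries, with 4 of 6 tested higher. These sums hold Lyz2, whose locus drives Cre in the KO mice. Lyz2 alone had 33.7 and 72.4 FPKM in floxed H2O and 15.9 and 24.5 in floxed injury libraries. In KO livers Lyz2 had 5.27 and 9.92 FPKM after H2O and 39.9 and 32.7 after injury. The 6 Kupffer cell markers had 154 and 112 FPKM in floxed H2O, 29.4 and 47.7 in floxed injury, 67.6 and 67.9 in KO H2O and 278.90 and 133 in KO injury libraries, with 5 of 6 higher. Under injury in KO livers 3 of the 6 rose (50%, beside 22.3% of all genes), with Marco the most (5.26). In the same comparison 0 fell (beside 40.7%), and Vsig4 (-0.31) and Cd5l (-0.34) did not pass. Endothelial markers had between 19.9 and 31.3 FPKM outside and 151 and 95.2 in injured KO livers (4 of 6 higher), and stellate cell markers between 18.7 and 38.2 outside and 111 and 57.3 in injured KO livers (3 of 6 higher). Under injury in KO livers 3 of the 6 endothelial markers rose (50%), with Lyve1 the most (5.04). Another 2 fell (33.3%), Stab2 (-0.90) and Kdr (-1.36). Of the 6 stellate cell markers 4 rose (66.7%) and 1 fell (16.7%), beside 22.3% and 40.7% of all genes. Hepatocyte markers had 38370.5 and 38792 FPKM in floxed H2O, 27761 and 28639 in floxed injury, 28772 and 40419 in KO H2O and 41681 and 40284 in KO injury libraries, with 4 of 7 higher. For 2 of the 7 the log2 difference between the injured groups was below 0, down to -0.52, and did not pass. B cell markers had 120 and 49.3 FPKM in floxed H2O and 9.29 and 8.96 in floxed injury libraries. In KO livers B cell markers had 46.9 and 38.5 FPKM after H2O and 46.2 and 42.0 after injury. Between the injured groups 4 of 5 tested were higher. Cholangiocyte markers ran from 16.4 to 82.5 FPKM with 2 of 4 higher, and T and NK cell markers from 0.968 to 5.81 with 2 of 2. The part of these cells in the level of the ribosomal protein genes was not tested. Mitochondrially encoded genes took 15.4% and 12.5% of fragments in H2O-treated floxed, 6.99% and 6.94% in injured floxed, 22.6% and 13.5% in H2O-treated KO and 10.4% and 12.6% in injured KO livers. With mitochondrial and haemoglobin genes left out of the scaling the interaction passed for 73 of the 84 ribosomal protein genes in the direction of KO and 1 in the other.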

How the data were processed

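The authors deposited 1 table of FPKM values with 55416 genes and 1 column for each of the 8 libraries. Build GRCm39 and DESeq2 3.15 are named in the submitters' processing notes, and the sources used here give no aligner or counting rule. Per the labels' protocols RNA was extracted with TRIzol and NEBNext Ultra libraries were prepared. FPKM times the exon length of each gene in GENCODE M21 (matched for 52083 genes) was within 0.01 of a whole number of fragments for 98.2% to 98.5% of values above 0, which gave the fragments assigned per library.

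FPKM values were tested as log2(FPKM + 1), with the scaling as deposited, by limma 3.58.1 in R 4.3.3 fitting 4 group means with a variance trend (residual degrees of freedom: 4), two-sided, over the 13708 genes that reached 1 FPKM in 2 or more libraries. The interaction is the change under injury in KO minus that in floxed livers. The model was tested on simulated data. Python 3.11.15 was used for tables and figures, with pandas 2.3.3 and scipy 1.17.1. Promoter sequences and motif counts came from the RefSeq table on GRCm38.p6. Coding lengths came from GENCODE M21, as the longest coding sequence of any transcript of a gene.

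The genes, the lists and the tests were chosen with earlier results of these data known. All genes that match the symbol rule could be named, with full values for the 6 largest rises and falls in each comparison, the paralogs, the stalk, the Mdm2-binding proteins, Rpsa, Rps3 and Rps6, and in other lists up to 4 genes with the smallest p; exceptions are stated, and some results that this rule would name are not reported here. Alternatives were a pseudocount of 0.1, no filter, median centring, quantile normalisation, a filter on a mean of 5 FPKM, a common sum (TPM), scaling without mitochondrial and haemoglobin genes, a replicate block, and each library left out. Chosen after seeing the data were voom on the recovered fragments and a crossed block.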

Additional observations from a re-analysis of the deposited data

Results flagged for a closer look

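A difference between the genotypes in the response to injury was tested for each gene by the interaction in limma. Of 84 ribosomal protein genes, 70 passed the Benjamini-Hochberg threshold with a positive interaction and 0 with a negative one, beside 20.9% and 15.1% of all genes. A positive value means a log2 change that was more positive in KO livers, which need not be the larger change. Rps27l, for one, fell in floxed livers and did not pass in KO livers. The greatest interactions were 2.75 for Rpl37a, 2.73 for Rpl36 and 2.57 for Rps15, each on the log2(FPKM + 1) scale. For each of these 3 genes both injured KO libraries were above the other 6, as were 17.9% of all genes tested. Both injured floxed libraries were below all 4 H2O libraries. Over all genes tested, 53.7% had both injured floxed libraries below both floxed H2O libraries. The 3 genes were picked by their interaction, which favours this pattern, so the pattern is no separate support. Neutrophil and red blood cell markers were highest in the same 2 injured KO libraries, and their part in the interaction was not tested.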

How the results depend on the processing

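Over 17 alternatives, and 18 between the injured groups, where the crossed pairing was also run, no named gene that had passed changed sign, and in each more ribosomal protein genes were higher than lower in injured KO livers against H2O-treated KO livers, against injured floxed livers and in the interaction. For the average over genotypes, median centring gave 1 fall and a median of 0.71. In floxed livers, no filter gave 3 rises, quantile normalisation 12 rises and a median of -0.041, median centring 13 falls and a median of -0.00 (-0.000577), and scaling without mitochondrial and haemoglobin genes 31 falls. In KO livers, median centring, quantile normalisation and a mean of at least 5 FPKM gave 0 falls, and median centring a median of 1.57. Quantile normalisation gave medians of 1.15 between the injured groups and 1.18 for the interaction. The interaction had 1 gene in the direction of floxed, Rpl7l1, with a mean of at least 5 FPKM, quantile normalisation, a common sum, scaling without mitochondrial and haemoglobin genes, the replicate block and voom. With 1 library left out, rises, falls and medians ran from 35 to 57, 2 to 4 and 0.34 to 0.55 for the average, 1 to 6, 7 to 23 and -0.42 to -0.20 in floxed, 67 to 77, 0 to 1 and 1.14 to 1.56 in KO, 65 to 78, 0 to 1 and 1.34 to 1.74 between injured groups, 0 to 0, 0 to 0 and -0.27 to 0.04 between H2O groups, and 53 to 73, 0 to 1 and 1.39 to 1.84 for the interaction. A library left alone in its group was assumed to vary like the others. The replicate numbers share only a number: same-numbered deviations correlated at -0.10 to 0.27 over pairs of groups. With them as a block, rises and falls were 44 and 3 for the average, 4 and 17 in floxed, 76 and 1 in KO, 76 and 1 between injured groups, and 67 and 1 for the interaction. The crossed pairing gave 78 and 1 between injured groups. Voom gave 52 and 3, 5 and 26, 77 and 1, 78 and 1, 0 and 0, and 75 and 1 in the 6 comparisons. With 2 libraries a group, the spread rests on few values, and depth leaves the paralogs under 1 FPKM unresolved.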
